A study of Mus musculus with 4 samples.

Results

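Enzymes that write or remove methyl marks on DNA and histones, and 1 reader of methylated DNA, were examined in the globus pallidus of mice given cocaine. The group holds 9 genes (Dnmt1, Dnmt3a, Dnmt3b, Tet1, Tet2, Tet3, Mbd1, Ehmt1 and Ehmt2) of 19087 genes measured. They were taken by name, as genes of methyl marks that have been studied in cocaine reward. A spot was used where the platform annotation gave it exactly 1 gene symbol, and the spots of a gene were averaged. The 9 genes had 17 spots in all, 5 genes with 1 spot and 4 genes with 3.

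DNA methyltransferases add a methyl group to the cytosine of CG dinucleotides. DNMT1 copies the mark to the new strand after replication, and DNMT3A and DNMT3B place it on unmarked DNA. TET enzymes oxidise the methyl group, which opens the way to its removal, and MBD1 is a protein that binds methylated CG sites. EHMT2, known as G9a, and its partner EHMT1, known as GLP, methylate lysine 9 of histone H3, a mark of silenced genes. In the nucleus accumbens, another nucleus of the basal ganglia, G9a, TET1 and DNMT3A have been linked to the behavioural response to repeated cocaine.

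The cocaine mice were male C57BL6 mice that received cocaine at 15 mg/kg on days 2, 3 and 4 of a conditioned place preference protocol and had a low preference score. The saline mice were male C57BL6 mice that received saline on the same days. The labels used here give no age. No cocaine mouse with a high score was on these arrays, so an effect of the drug and one of the score cannot be told apart. Each of 4 two-colour arrays of 60-mer probes set 1 cocaine mouse against 1 saline mouse, and the dyes were exchanged between arrays. The cocaine RNA carried Cy5 on the first and the third array and Cy3 on arrays 2 and 4.

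In the deposited log2 ratios the dyes left a strong bias. Between arrays of opposite dye orientation the ratios of 45018 spots correlated at Pearson's r between -0.96 and -0.83, and between arrays of the same orientation at 0.87 and 0.90, so the columns had likely been turned to 1 treatment direction. Cocaine over saline is the likely direction, from the order in which the design text names the treatments, and if it is the other way round, every sign below turns. "Higher" and "lower" refer to cocaine mice, on that reading. With no intensities, a spot was called above background where its averaged dye bias passed a limit set on the dim spots, which is a stand-in for brightness. By that limit 17 of 17 spots of the 9 genes were above background. All 15 measured markers of pallidal neurons had a spot above it too, and so did 7 of 9 cortical and thalamic markers, so this limit is no check of the dissection. Among the cortical and thalamic markers Neurod6 and Tbr1, genes of cortical glutamatergic neurons, had none.

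The CG sequence that the DNMT and TET enzymes act on is also found in the start regions of genes of this group. RefSeq windows on GRCm38.p6, from 250 bases before to 50 bases after a transcript's start, were at hand for 8 of the 9 genes, 13 windows in all. Of these, 12 held more CG dinucleotides than 7, the median of 32851 mouse windows. Windows of Tet2 and Dnmt1 are printed because these 2 genes had the highest and the lowest ratio in cocaine mice. Capitals mark each CG, the dinucleotide that DNMT enzymes methylate and TET enzymes oxidise.
Tet2, chr3:133544341-133544640, minus strand: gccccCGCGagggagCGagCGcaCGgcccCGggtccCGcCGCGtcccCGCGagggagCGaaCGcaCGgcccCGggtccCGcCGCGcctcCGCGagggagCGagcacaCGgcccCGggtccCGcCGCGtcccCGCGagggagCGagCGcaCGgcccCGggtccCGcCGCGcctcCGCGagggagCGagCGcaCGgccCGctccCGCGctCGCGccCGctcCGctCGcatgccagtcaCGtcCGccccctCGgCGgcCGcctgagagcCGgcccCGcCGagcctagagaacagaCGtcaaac
Dnmt1, upstream start, chr9:20959839-20960138, minus strand: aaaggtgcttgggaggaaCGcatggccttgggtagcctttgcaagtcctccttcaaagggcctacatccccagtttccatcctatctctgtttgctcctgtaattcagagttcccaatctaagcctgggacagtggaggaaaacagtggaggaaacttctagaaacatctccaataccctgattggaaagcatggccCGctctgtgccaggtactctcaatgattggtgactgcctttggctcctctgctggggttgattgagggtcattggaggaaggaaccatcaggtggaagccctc
Dnmt1, downstream start, chr9:20952574-20952873, minus strand: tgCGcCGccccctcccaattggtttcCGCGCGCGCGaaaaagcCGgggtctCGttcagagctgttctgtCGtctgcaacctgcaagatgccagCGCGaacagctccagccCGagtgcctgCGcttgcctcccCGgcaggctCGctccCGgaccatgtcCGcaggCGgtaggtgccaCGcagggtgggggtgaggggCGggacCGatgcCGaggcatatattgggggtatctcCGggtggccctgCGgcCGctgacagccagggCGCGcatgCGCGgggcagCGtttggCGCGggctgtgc

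The Tet2 window held 57 CG, a number reached by 0.152% of all windows. The 3 Dnmt1 windows held 2, 12 and 33 CG, in order from upstream to downstream, so the starts of this 1 gene ran from CG-poor to CG-rich. Dnmt3a had 46, 47 and 18 CG in its 3 windows, the first 2 of which overlap. Ehmt1 had 34 and Dnmt3b had 30. Ehmt2 had 28 and 40, Tet3 had 22 and Tet1 had 17. The AP-1 motif TGANTCA, the kind of site that FOS and JUN proteins bind, reads the same on both strands and was in 0 of the 13 windows, against 7.81% of all windows. The cyclic AMP response motif TGACGTCA, which also reads the same on both strands and cannot hold a TGANTCA match within it, was in 0 of the 13, against 1.79%. The counts of 0 among 13 windows were not tested against these shares. All these counts describe letters in a short window, and the arrays measured neither methylation nor binding there.

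The comparison asked whether transcripts of these genes differed between cocaine mice and saline mice. None of the 9 passed the test (limma, Benjamini-Hochberg adjustment over 30452 features, adjusted p = 0.999 for each), and 0 features passed in all, which is 0% of those tested. At an unadjusted p under 0.05 there were 0 of the 9 genes, against 1.52% of the 19087 genes, and 529 of the 30452 features, which is 1.74%. Among the 11489 genes with every spot above background, as in the 9, the share was 2.12%. The 9 mean log2 ratios lay between -0.081 for Dnmt1 and 0.13 for Tet2, with 6 lower and 3 higher, and no mean was larger than 1.49 times its standard error (SE). Per the labels the hybridizations were independent, with a different animal code in every channel. The SE is limma's moderated one, which combines a gene's own spread over the 4 arrays with that of all features, so a gene with very even arrays still has an SE near the typical one.

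The deposited ratios show how far the dyes outweighed the treatment. Dnmt1 stood at 0.73 and 1.15 on arrays 1 and 3, where cocaine was in Cy5, and at -0.98 and -1.28 on arrays 2 and 4, where it was in Cy3. Each of the 9 genes followed this division, with positive deposited ratios on both Cy5 arrays and negative ones on both Cy3 arrays. The means over the 4 deposited values were small beside it, from -0.096 for Dnmt1 to 0.12 for Tet2. The values that follow are after a loess on the dye bias, taken as its average over the 2 orientations. That step ties the 4 values of a gene together, so that arrays 1 and 3 have nearly the same sum as arrays 2 and 4, and agreement between arrays adds less than 4 independent values would.

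**Figure D1:**
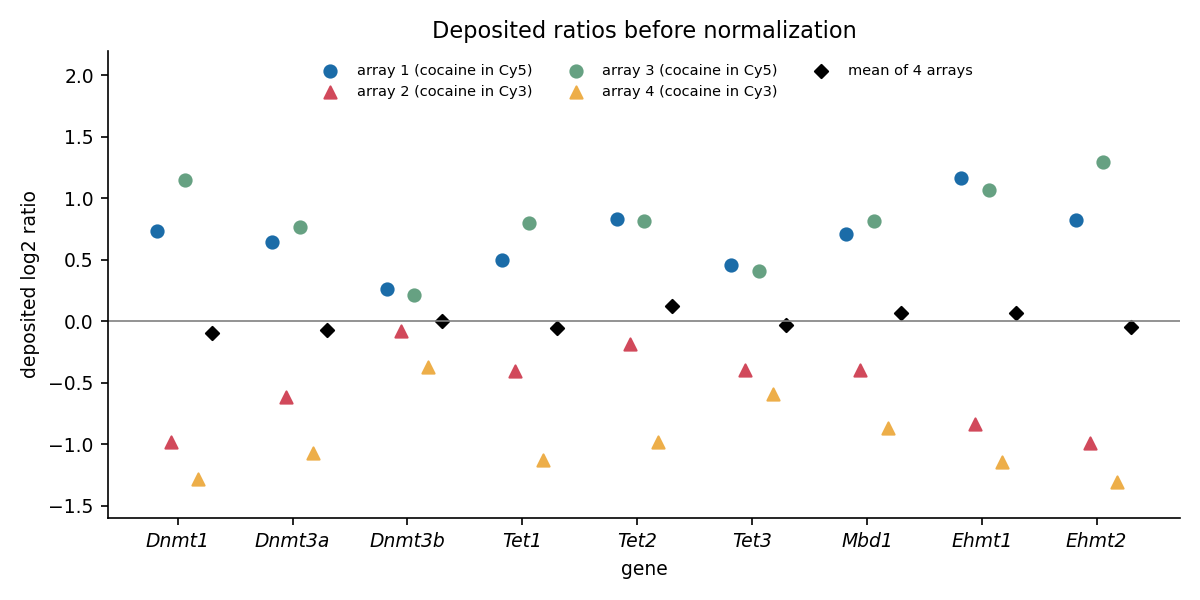
Deposited log2 ratio (vertical axis) of the 9 genes (horizontal axis) on 4 arrays, with circles for cocaine in Cy5, triangles for cocaine in Cy3 and diamonds for the mean. Each gene lies above 0 on both Cy5 arrays and below 0 on both Cy3 arrays, with means between -0.096 and 0.12.

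Among the DNA methyltransferases, Dnmt1, the maintenance enzyme, had normalized log2 ratios of -0.15, -0.15, -0.021 and -0.0077 on arrays 1 to 4. It was below 0 on 4 of 4 arrays, clearly so on the first pair and close to 0 on the other pair. Its mean was -0.081 (SE 0.054, n = 4 arrays), which is 0.945-fold, with a 95% interval from 0.859-fold to 1.04-fold. Dnmt3a, a de novo methyltransferase abundant in adult neurons, had -0.030, -0.014, -0.11 and -0.12 on arrays 1 to 4. It was also below 0 on 4 of 4 arrays, but with arrays 3 and 4 as the lower pair. Its mean was -0.068 (SE 0.050), with an interval from 0.873-fold to 1.04-fold. Dnmt3b, the de novo enzyme used mainly in early development, had 0.046 and 0.045 on arrays 1 and 2 and -0.060 and -0.071 on arrays 3 and 4. Its values fell on both sides of 0, and the mean was -0.0099 (SE 0.052).

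The TET dioxygenases included the gene with the highest mean ratio and the widest interval. Tet1 had -0.094, 0.12, -0.016 and -0.21 on arrays 1 to 4. Only array 2 was above 0, and the mean was -0.049 (SE 0.070, interval from 0.855-fold to 1.09-fold). Tet2 had 0.24 and 0.34 on arrays 1 and 2 and 0.0033 and -0.075 on arrays 3 and 4. The higher values stood on 1 array of each dye orientation. Since the loess step ties the 2 orientations to nearly the same sum, this split is no check on the dyes. The Tet2 mean was 0.13 (SE 0.087), which is 1.09-fold with an interval from 0.937-fold to 1.28-fold. Tet3, another TET dioxygenase expressed in neurons, had 0.052, -0.060, -0.12 and -0.013. Its mean was -0.035 (SE 0.053), with 1 array above 0 and 3 below. The 3 TET genes therefore had means on both sides of 0, and the differences between them were not tested.

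Mbd1, the reader of methylated CG sites, had 0.12, 0.13, 0.021 and 0.021 on arrays 1 to 4. It was the only one of the 9 genes above 0 on 4 of 4 arrays, with a mean of 0.072 (SE 0.051, interval from 0.961-fold to 1.15-fold). With Dnmt1 and Dnmt3a this makes 3 of 9 genes with the same sign on 4 arrays, 1 higher and 2 lower. Of all genes 14.8% had the same sign on 4 arrays, 8% higher and 6.76% lower. Among the 11489 genes with every spot above background, as in the 9, it was 12.1%. A count of 3 among 9 genes picked by name was not tested against these shares.

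The histone H3 lysine 9 methyltransferases EHMT1 and EHMT2 act as a heteromer, and their transcripts had means on opposite sides of 0. Ehmt1 had 0.27, 0.018, -0.12 and 0.15 on arrays 1 to 4, a spread wider than its mean of 0.079 (SE 0.078, interval from 0.920-fold to 1.21-fold). Ehmt2 had -0.12 and -0.090 on arrays 1 and 2 and 0.056 and 0.031 on arrays 3 and 4. Its mean was -0.032 (SE 0.057, interval from 0.885-fold to 1.08-fold). On array 1 the pair stood furthest apart, and on array 3 the order was the other way round. The difference between them was not tested.

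**Figure D2:**
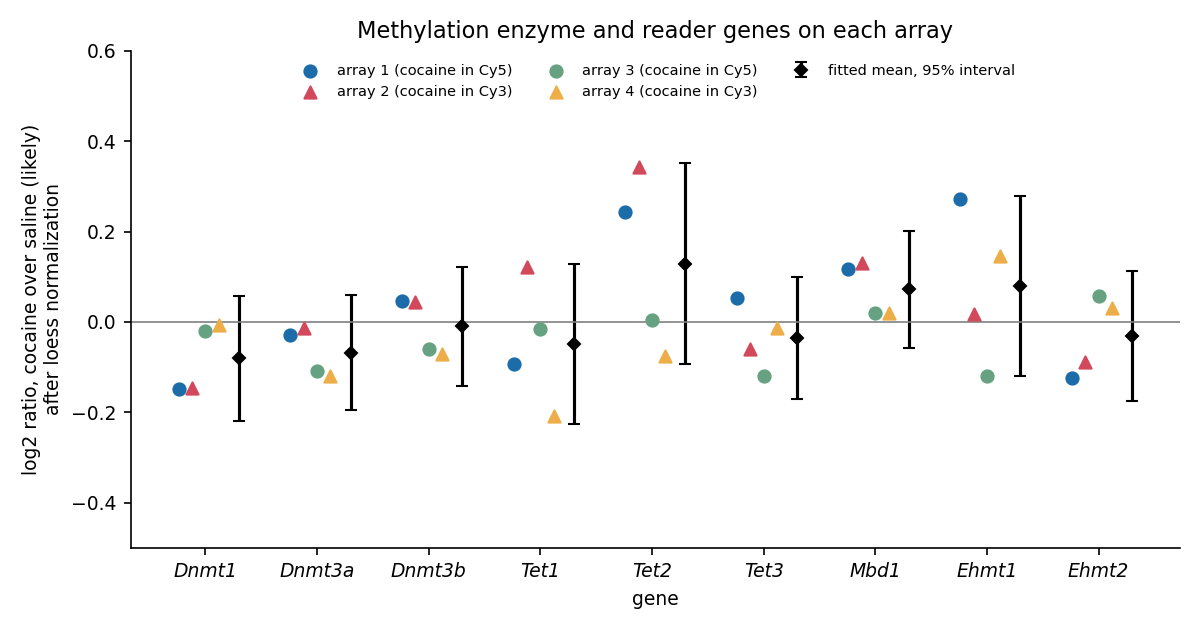
Normalized log2 ratio (vertical axis, cocaine over saline as the likely direction) of the 9 genes (horizontal axis), with 1 point per array, circles for cocaine in Cy5 and triangles for cocaine in Cy3, and diamonds with bars for the fitted mean and its 95% interval. Each interval crosses 0. Tet2 and Ehmt1 show the widest intervals, and Dnmt1, Dnmt3a and Mbd1 keep 1 sign on 4 arrays.

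The intervals also give the size of difference that these arrays leave room for. Over the 9 genes they ran from 0.855-fold, the lower bound of Tet1, to 1.28-fold, the upper bound of Tet2, so a 1.5-fold difference lay outside each of the 9 intervals. These are intervals of the measured ratio, not adjusted for the number of genes. Whether the authors subtracted background before they formed the ratios is not given in the sources used here. The SE of the 9 genes ran from 0.050 for Dnmt3a to 0.087 for Tet2, against a median of 0.057 over all genes.

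Single spots were compared for the 4 genes that had 3. The Mbd1 spots had mean log2 ratios from 0.048 to 0.11 and the same sign in 3 of 3. The Dnmt3a spots lay between -0.098 and -0.020, also with 1 sign, although the first of them ranged from -0.42 on array 4 to 0.23 on array 2. The Tet3 spots lay between -0.055 and -0.0034.
The Tet2 spots disagreed, at -0.034, 0.30 and 0.12. The spot at 0.30 was assigned through a cDNA record, while the other two were assigned through the RefSeq transcript of Tet2. It had 0.51 and 0.57 on arrays 1 and 2 and 0.067 and 0.042 on arrays 3 and 4. It was the only one of the 17 spots with an unadjusted p under 0.05 (limma over all single spots), only just below that limit. This spot did not pass after adjustment. The share of all single spots with an unadjusted p under 0.05 is not reported here, so the 1 of 17 has no background to be set against. The mean of Tet2 therefore rests mainly on this spot and on the third, which had 0.25 and 0.36 on arrays 1 and 2. Which Tet2 transcripts each spot detects was not analysed here.

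**Figure D3:**
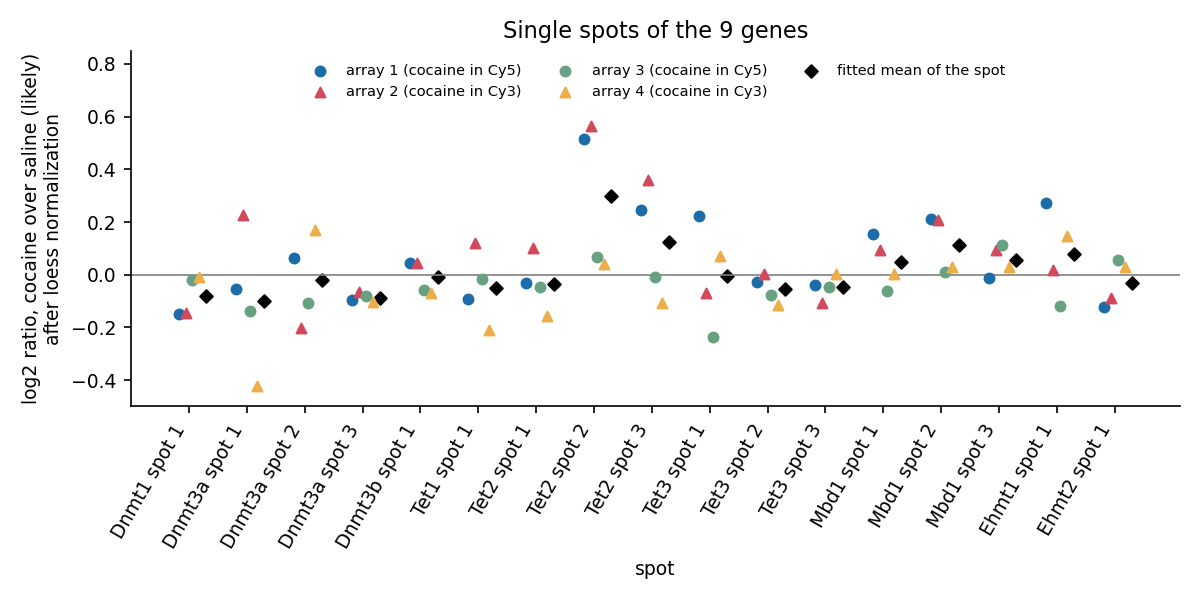
Normalized log2 ratio (vertical axis) of each of the 17 spots (horizontal axis) on 4 arrays, with circles for cocaine in Cy5, triangles for cocaine in Cy3 and diamonds for the fitted mean of the spot. Tet2 spot 2 reaches 0.51 and 0.57 on arrays 1 and 2, while Tet2 spot 1 has a mean of -0.034.

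Single arrays moved these small ratios. When 1 array was left out, here and below, the loess was redone and the dye term was kept. A mean from such a fit is therefore the average of the 2 dye orientations, not the plain mean of the arrays left. The array that stood alone in its orientation counted as much as the 2 others together. Ratios close to 0 can take another sign under this weighting than as plain means. Without array 4 the Tet2 mean was 0.23 (unadjusted p = 0.0211, adjusted p = 0.483 with limma). In that fit 1468 of the 19087 genes had an unadjusted p under 0.05, against 290 with 4 arrays. Without array 2 the Tet2 mean was 0.028. Dnmt1 stayed between -0.12 and -0.049, Dnmt3a between -0.091 and -0.046, and Mbd1 between 0.044 and 0.10 in the 4 fits that left out 1 array. For 5 genes the sign turned. Dnmt3b had 0.024 without array 3 and 0.021 without array 4. Tet1 had 0.031 without array 4, Tet3 had 0.0039 without array 3, Ehmt1 had -0.017 without array 1 and Ehmt2 had 0.013 without array 1. No member passed in any of these fits.

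**Figure D4:**
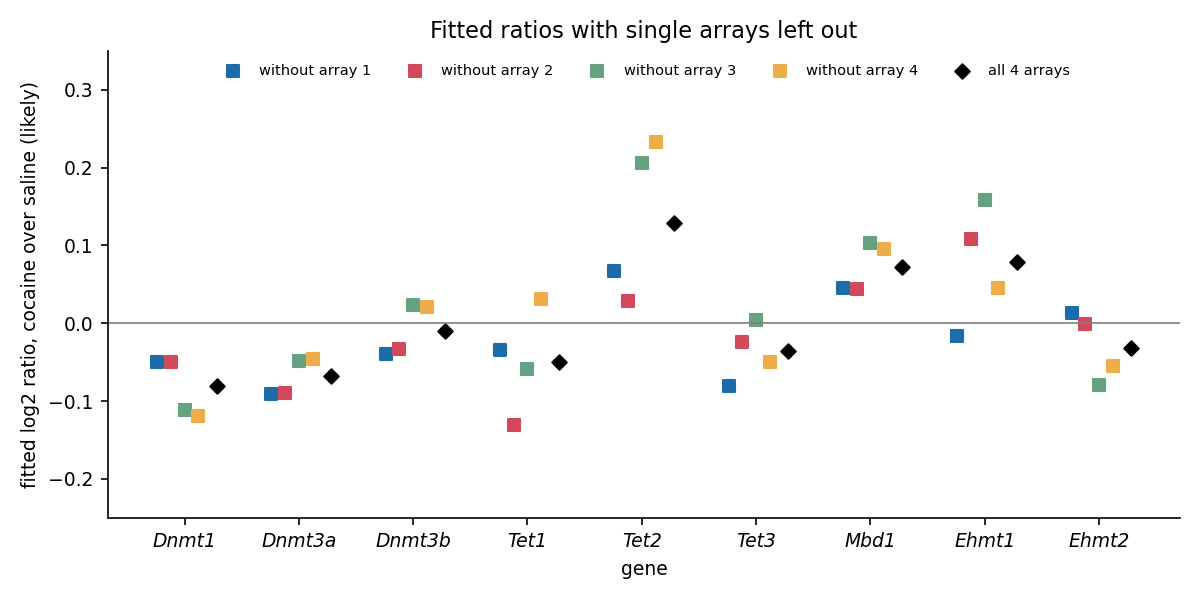
Fitted log2 ratio (vertical axis) of the 9 genes (horizontal axis), with squares for the fits that leave out 1 array and diamonds for the fit on 4 arrays. Dnmt1, Dnmt3a, Tet2 and Mbd1 keep their sign in the 4 fits with 1 array left out, and Tet2 spans 0.028 to 0.23.

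Other genes of the same pathways were set beside the 9. In 4 lists with 75 further genes of DNA, histone lysine and arginine methylation, 70 were measured, 32 of them higher and 38 lower. None passed over all features, and 1 had an unadjusted p under 0.05 (1.43%, against 1.52% of all genes). The same sign on 4 arrays was seen in 9 of the 70, which is 12.9%, against 14.8% of all genes. Of the 11489 genes with every spot above background, 12.1% had the same sign on 4 arrays. An unadjusted p under 0.05 (limma) was seen in 2.12% of them. The median log2 ratio of the 9 enzymes and reader was -0.032, against -0.0028 over all genes and -0.0087 over those with every spot above background.

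Partners and readers of DNA methylation were split nearly evenly, with 9 of 20 measured genes higher, 11 lower and a median of -0.0045, which was 0.011 with 12 of 20 higher without array 1. Gadd45a, a stress-inducible gene whose family has been linked to active DNA demethylation, had 0.14, 0.15, 0.078 and 0.094 on arrays 1 to 4 (mean 0.11, SE 0.047). Mbd4, a glycosylase that removes thymine from mismatches at CG sites, had 0.13, 0.089, 0.093 and 0.13 (mean 0.11, SE 0.047). Both were above 0 on 4 of 4 arrays with unadjusted p of 0.0583 and 0.0603. Mbd3, a subunit of the NuRD remodelling complex, had -0.44 on array 1 and 0.056 on array 3, with a mean of -0.19 (SE 0.089) that was -0.066 without array 1 and -0.31 without array 3. Mbd2, another methyl-CG-binding protein, had a mean of -0.071 (SE 0.055), which was -0.022 from the 1 of its 2 spots above background, -0.030 without array 1 and -0.11 without array 3. Uhrf1, which brings DNMT1 to replicated DNA, had 0.096 and 0.20 on arrays 1 and 4 and -0.39 and -0.30 on arrays 2 and 3. Its mean of -0.099 (SE 0.12) was 0.028 without array 2 and 0.022 without array 3. From the 1 of its 2 spots with the higher averaged dye bias it was -0.030. Gadd45b, an activity-induced relative of Gadd45a, had a mean of 0.035 (SE 0.099), which was -0.050 without array 4 and 0.19 without array 2.

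Among genes of histone H3 lysine 9 methylation 10 of 19 were higher and 9 lower, with a median of 0.0064. Without array 2 this was 4 higher and 15 lower with a median of -0.035, without array 3 the median was -0.0064, and without array 4 it was 0.028. Kdm4b, a demethylase of that residue, had -0.32, -0.23, -0.021 and -0.085 on arrays 1 to 4 (mean -0.16, SE 0.068, unadjusted p = 0.0613). Without array 1 its mean was -0.094. Prdm2, a methyltransferase, had a mean of -0.076 (SE 0.050), and Atf7ip, a partner of SETDB1, had 0.084 (SE 0.053). Both had 1 sign on 4 arrays. Prdm2 was -0.042 without array 4, and Atf7ip was 0.049 without array 1 and 0.055 without array 2. Setdb1, the methyltransferase itself, had a mean of -0.032 (SE 0.054), which was 0.0088 without array 1 and -0.079 without array 3. From the 1 of its 2 spots above background it was -0.081.

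For the other lysines of histone H3, 13 of 23 measured genes were higher and 10 lower, with a median of 0.0022. Without array 1 this was 7 higher and 16 lower (median -0.030), and without array 2 it was 6 higher and 17 lower (median -0.060). Without array 3 the median was 0.029, and without array 4 it was 0.036 with 15 higher and 8 lower. Wdr5, a core subunit of the H3K4 methyltransferase complexes, had -0.19, -0.19, -0.078 and -0.073 on arrays 1 to 4. Its mean of -0.13 (SE 0.052) was the 1 value with an unadjusted p under 0.05 among the 70 (limma), only just below that limit at 0.0498. This p was 0.0597 with 1 spot per gene and 0.111 with spots above background alone. It was 0.0465 with a loess span of 0.7 and 0.0132 with no dye term. With single arrays left out the Wdr5 mean ranged from -0.17 without array 4 to -0.11 without array 2. Ash2l, a subunit of the same complexes, had a mean of -0.11 (SE 0.053), and Setd2, which trimethylates H3K36, had 0.11 (SE 0.050). Both kept 1 sign on 4 arrays. The Ash2l value rests on 1 of its 2 spots, since the spot with the higher averaged dye bias had -0.00034 alone. Its mean was -0.075 without array 1.

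The arginine methyltransferases had means below 0 in 8 of 8 genes, with a median of -0.027, against 52.0% of all genes below 0. Of the 11489 genes with every spot above background, 6331 were below 0. The means ranged from -0.15 for Prmt1, the main type I enzyme, to -0.012 for Prmt6. Prmt1 had -0.42 and -0.24 on arrays 1 and 2 and 0.12 and -0.064 on arrays 3 and 4. Prmt5, a type II enzyme, had a mean of -0.13 (SE 0.081), and Prmt7 had -0.099 (SE 0.065). Without array 1 the means were -0.015 for Prmt1, -0.042 for Prmt5 and -0.035 for Prmt7, and without array 3 they were -0.28, -0.22 and -0.18 in the same order. Without array 2 they were -0.096, -0.073 and -0.058. None of the 8 had the same sign on 4 arrays. Without array 3 the median was -0.14 with 7 of 8 below 0, without array 1 it was -0.016 with 6 of 8 below 0, and without array 4 it was -0.047.

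**Figure D5:**
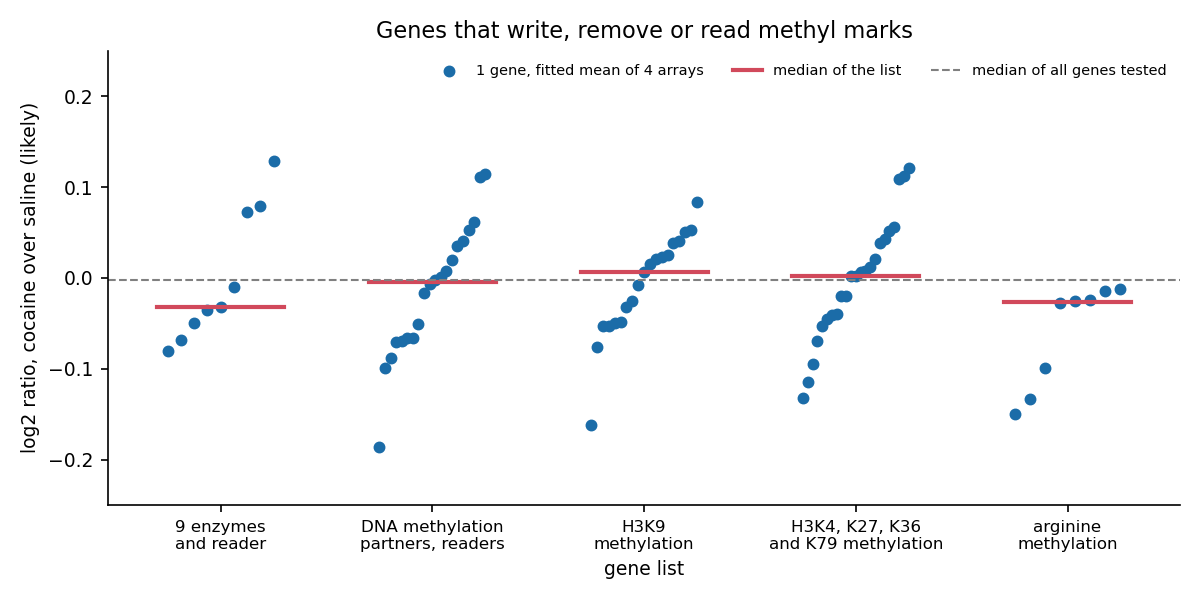
Fitted log2 ratio (vertical axis) of each gene in 5 lists (horizontal axis), with red lines for the list medians and a dashed line for the median of all genes tested. The 9 enzymes and reader lie between -0.081 and 0.13, and the arginine methyltransferases lie below 0 in 8 of 8 genes.

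In dissected tissue fewer cells of a type and less RNA per cell cannot be told apart. Cholinergic neuron markers were lower in 7 of 7 measured genes with a median log2 ratio of -0.18, and without array 4 in 5 of 7 with a median of -0.034. Without array 3 that median was -0.12. Oligodendrocyte markers were lower in 8 of 9 (median -0.074), and without array 4 in 5 of 9 (median -0.010). Without array 3 their median was -0.11, and it was -0.034 with 1 spot per gene. The astrocyte median of -0.062 (6 of 9 lower) was -0.029 without array 1, -0.0088 without array 2 and -0.014 without array 4. The microglia median of -0.048 (5 of 8 lower) was -0.00018 without array 2, -0.014 without array 1 and -0.081 without array 3.

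Other lists changed sides with single arrays. The pallidal neuron median of -0.013 (10 of 15 lower) was 0.036 with 9 of 15 higher without array 4, -0.094 without array 3 and -0.048 without array 2. The striatal neuron median of 0.092 (5 of 7 higher) was -0.0016 with 3 of 7 higher without array 2, and 0.17 without array 4. The cortical and thalamic neuron median of 0.037 (5 of 9 higher) was -0.033 without array 3, 0.10 without array 1, 0.15 without array 4 and -0.015 over the 7 genes with spots above background. The oligodendrocyte precursor median of 0.016 was -0.038, -0.013 and -0.0055 without arrays 1, 3 and 4. The endothelial and mural median of 0.0018 was -0.017, -0.022 and 0.021 without arrays 2, 3 and 4. The part of these cell types in the ratios of the 9 genes was not tested.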

How the data were processed

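RNA of the globus pallidus was compared on 4 two-colour Agilent whole mouse genome arrays, each with 1 cocaine and 1 saline mouse. The authors deposited log2 ratios for 45220 spots, with 1 column per array. Agilent Feature Extraction is named in the submitters' processing notes, with no version. Scale and direction are not stated in the sources used here. The columns were not centred, with deposited medians of 0.33, -0.25, 0.49 and -0.56 on arrays 1 to 4. They were read as log2 from their values and as already turned from the negative correlations between dye orientations. Intensities and spot flags were not used here, so precision is limited by the number of arrays.

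Spots at 0 on all 4 arrays (202) were left out. Each array was normalized by loess (span 0.3, loessFit) against the mean dye bias of the 2 orientations, in which a treatment effect cancels. Spots with 1 symbol were averaged by gene. Of the spots 33653 had 1 symbol, 56 had several and 11511 had none. A treatment and a dye term were fitted with limma 3.58.1 in R 4.3.3 (lmFit, eBayes), with a threshold of 0.05 after Benjamini-Hochberg adjustment over 30452 features. The background limit was a mean dye bias of 0.074, which lies 3 SDs over the mode among dim spots, and 65% of spots passed it. Further genes were matched by Entrez identifier. Named are the 9 genes, Mbd2, Uhrf1, Setdb1 and Gadd45b by name, and the 3 genes of each list with the smallest p. Suv39h1, also in the naming rule, was not analysed here, and 1 other item of that rule is not reported here. Genes that mark the ends of a range or a cell type were named after their values were seen. The members and lists were chosen with earlier results of these data known. Alternatives were 2 other normalizations, another span, no dye term, 1 spot per gene, spots above background alone, another adjustment, a trended fit, and leaving out each array.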

Additional observations from a re-analysis of the deposited data

How the results depend on the processing

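None of the 9 genes passed in any of the 12 alternatives. The count of features that passed was 0 with the settings reported and in 11 of the alternatives. With each array centred on its median it was 18, with 10 higher and 8 lower and none of the 9 genes among them. In that fit the 9 genes all had an SE of 0.111, so a gene's own spread had no part in its test. At an unadjusted p under 0.05, 529 features stood against 1900 with no dye term, 763 with a trended fit, and 295 to 2668 when single arrays were left out. Among the alternatives that kept 4 arrays, Dnmt3b turned sign, to 0.0029 with each array centred on its median and 0.0041 with no normalization, and Gadd45b was -0.016 with 1 spot per gene. With 1 spot per gene Tet2 was 0.30, Mbd2 -0.022, Uhrf1 -0.030, Setdb1 -0.081 and Ash2l -0.00034. When single arrays were left out the log2 ratio ranged from -0.040 to 0.024 for Dnmt3b, from -0.13 to 0.031 for Tet1, from -0.080 to 0.0039 for Tet3, from -0.017 to 0.16 for Ehmt1, from -0.079 to 0.013 for Ehmt2, from -0.050 to 0.19 for Gadd45b, from -0.079 to 0.0088 for Setdb1 and from -0.26 to 0.028 for Uhrf1. The median of the 9 genes ranged from -0.034 to 0.021 in these fits. The cause of these turns was not tested. The arrays form 1 group, and each array sets 1 cocaine mouse against 1 saline mouse, so the ratios tested were already within arrays. No further pairing was analysed. The brightness of the spots over background is not known here, and what size of difference 4 arrays could detect was not measured.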
